A study of Mus musculus with 12 samples.

Results

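The 31 genes described here make, move, export or store cholesterol, and they were measured in single cells of the mouse mammary gland. They were picked by gene symbol from the 27998 genes of the count tables, and each symbol had 1 row in the tables. In total, 18 encode enzymes of synthesis (Acat2, Hmgcs1, Mvk, Pmvk, Mvd, Idi1, Fdps, Fdft1, Sqle, Lss, Cyp51, Tm7sf2, Msmo1, Nsdhl, Hsd17b7, Ebp, Sc5d and Dhcr7). Another 5 belong to the sterol-sensing system that controls these enzymes (Srebf1, Srebf2, Scap, Insig1 and Insig2). A further 5 serve uptake and transport inside the cell (Scarb1, Npc1, Npc2, Stard4 and Mylip), and 3 serve export or storage (Abca1, Abcg1 and Soat1).

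The fourth mammary glands of female C57BL/6J mice aged 43 weeks were dissociated, and 12 single-cell libraries were made, 1 for each group. All groups except Intact had received 4-vinylcyclohexene diepoxide (VCD), which depletes the ovarian follicles and is used to model menopause, at 160 mg/kg/day for 15 days. A layout of 9 groups combined 3 hormone treatments with 3 diets. Mice received no hormone (VCD_Vehicle, VCD_Low_PBDE, VCD_High_PBDE), estradiol (E2) at 1 µg per animal per day for 1 week (VCD_E2, VCD_Low_E2, VCD_High_PBDE_E2), or E2 with progesterone (P4) at 1 mg per animal per day (VCD_E2_P4, VCD_Low_E2_P4, VCD_High_PBDE_E2_P4). The diets held a mixture of polybrominated diphenyl ethers (PBDEs), flame retardants that persist in tissue. The low diet gave PBDE-47, PBDE-100 and PBDE-153 at 0.05, 0.0028 and 0.0063 mg/kg/day for 20 weeks. The high diet gave the same compounds at 1, 0.056 and 0.126 mg/kg/day for 1 week, so dose and duration differed together, and the third diet held no PBDE. Outside the layout stood Intact, VCD_E2_ICI (E2 and a single 5 mg dose of ICI, an antagonist of the estrogen receptor) and VCD_Vehicle_NormEnv, whose label is not explained further in the sources used here. How many animals entered a library is not given in the sources used here, so the spread between libraries includes differences between animals, digestions and runs.

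Cholesterol is built from acetyl units through mevalonate, the isoprenoid diphosphates, squalene and lanosterol. When the membrane of the endoplasmic reticulum is low in sterol, SCAP escorts SREBP2 (from Srebf2) to the Golgi for cleavage, and the released factor switches on the genes of synthesis together with Insig1, which holds the complex back again. When sterol is plentiful, oxysterols activate the LXR receptors, which raise the exporters Abca1 and Abcg1 and the ubiquitin ligase Mylip, a brake on lipoprotein uptake. Mammary fibroblasts lie mainly in connective tissue around and within the fat pad and beside its ducts. Macrophages take up cholesterol with the lipoproteins and dying cells that they clear.

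The promoters of 24 of the 31 genes could be read from RefSeq (GRCm38.p6), in 32 windows from 250 bases before to 50 bases after a transcription start. Scarb1, Fdps, Fdft1, Stard4, Sqle, Npc1 and Abcg1 had no match. Both strands were searched for 4 motifs, given here with their share of all 32851 windows of the same length. The CCAAT box, bound by NF-Y, was in 22 of the 32 windows (68.8%) and in 37.4% of all windows. It was in at least 1 window of 14 of the 15 synthesis genes matched. The GC box GGGCGG was in 27 windows (84.4%) and in 35.7% of all. The E-box CACGTG was in 7 windows (21.9%) and in 7.15% of all. The sterol regulatory element, searched as TCACNCCAC, was in 1 window, that of Hmgcs1, and in 1.24% of all. A match is a run of letters and not a site at which a factor was measured. The 250 bases before the start are shown for 4 genes of synthesis and its control that stood highest in a single fibroblast subset below, then for Soat1, which differed most steadily with hormone, and for the exporter Abca1. The sequences run 5′ to 3′ on the strand of the gene, and capitals mark the CCAAT box in either orientation (CCAAT or ATTGG) and, in Hmgcs1, also the sterol regulatory element.
Hmgcs1, chr13:119690101-119690350, plus strand: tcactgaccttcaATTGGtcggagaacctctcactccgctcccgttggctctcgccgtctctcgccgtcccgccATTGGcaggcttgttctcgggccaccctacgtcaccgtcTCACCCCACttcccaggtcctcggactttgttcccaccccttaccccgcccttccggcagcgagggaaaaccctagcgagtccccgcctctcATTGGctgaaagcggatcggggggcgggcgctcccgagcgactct
Idi1, chr13:8885356-8885605, plus strand: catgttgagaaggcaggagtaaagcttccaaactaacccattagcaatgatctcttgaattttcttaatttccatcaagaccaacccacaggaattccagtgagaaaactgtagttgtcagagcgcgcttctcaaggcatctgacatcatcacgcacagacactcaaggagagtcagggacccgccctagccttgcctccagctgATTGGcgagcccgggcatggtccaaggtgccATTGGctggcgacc
Msmo1, chr8:64733579-64733828, minus strand: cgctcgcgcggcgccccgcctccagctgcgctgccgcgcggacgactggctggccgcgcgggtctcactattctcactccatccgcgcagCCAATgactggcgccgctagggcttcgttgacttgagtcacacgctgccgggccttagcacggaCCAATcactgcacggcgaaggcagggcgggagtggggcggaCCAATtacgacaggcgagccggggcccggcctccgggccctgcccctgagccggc
Insig1, chr5:28071162-28071411, plus strand: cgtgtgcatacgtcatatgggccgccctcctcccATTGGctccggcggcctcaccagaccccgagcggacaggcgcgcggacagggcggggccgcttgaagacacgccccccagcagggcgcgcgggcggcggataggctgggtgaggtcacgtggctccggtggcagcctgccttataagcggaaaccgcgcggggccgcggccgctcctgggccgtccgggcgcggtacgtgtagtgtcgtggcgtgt
Soat1, chr1:156474329-156474578, minus strand: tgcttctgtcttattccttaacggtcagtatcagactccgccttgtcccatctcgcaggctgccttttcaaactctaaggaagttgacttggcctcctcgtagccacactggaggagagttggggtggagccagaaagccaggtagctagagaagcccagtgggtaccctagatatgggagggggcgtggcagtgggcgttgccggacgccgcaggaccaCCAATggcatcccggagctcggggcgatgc
Abca1, chr4:53159896-53160145, minus strand: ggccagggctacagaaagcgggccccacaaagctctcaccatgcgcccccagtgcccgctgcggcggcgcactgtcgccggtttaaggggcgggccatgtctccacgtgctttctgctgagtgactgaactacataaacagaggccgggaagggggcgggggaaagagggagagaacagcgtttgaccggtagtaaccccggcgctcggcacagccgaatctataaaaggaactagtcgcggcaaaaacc
The stretch of Hmgcs1 held 3 CCAAT boxes and the sterol element, that of Msmo1 held 3 CCAAT boxes, Idi1 had 2, Insig1 and Soat1 had 1 each, and that of Abca1 had 0.

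The libraries held 41737881 to 109224969 UMIs (median 62355232), and 46257 of 58620 barcodes passed the filters on cells. Pairs of libraries shared 0 to 15 barcodes. Fibroblasts (31438 cells) were divided by the mean score of 7 marker genes per subset, and 81.6% to 90.9% of them per library entered a subset. The subsets are called here by leading markers: Dpp4/Pi16 fibroblasts (11700 cells, 660 to 1784 per library), Fabp4/Cxcl14 fibroblasts (7837 cells, 156 to 1224), Tnc/Mfap4 fibroblasts (3737 cells, 150 to 604) and Gdf10/F3 fibroblasts (3882 cells, 175 to 589). Macrophages were taken by their C1q chains and a macrophage receptor (889 cells, 35 to 130 per library). None of the 31 genes was used in a gate. The subset markers came from a clustering of data that include these libraries, so the subsets are not independent of the other genes of the same cells. UMIs were summed per library and population and are given as counts per 1000000 UMIs of that sum (CPM). In bulk sums of this kind, fewer cells that use a gene and less RNA of it per cell cannot be told apart. The library VCD_Low_E2_P4 stood apart, with 10006 barcodes and with 843.6 CPM of Col1a1 in its macrophages against 29.66 to 92.96 in the other libraries. Its part in the results was not tested beyond leaving it out. That gave 94 instead of 95 called differences between subsets and 26 instead of 27 in macrophages. For hormone (the mean of E2 and E2 with P4 against none) it gave 14 instead of 11.

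The enzymes of cholesterol synthesis stood highest in the Fabp4/Cxcl14 fibroblasts. Summed over the 18 genes, this subset held 576.6 to 2462 CPM over the 12 libraries (1280 ± 585.1, SD, n = 12). The Tnc/Mfap4 fibroblasts held 220.6 to 844.2 CPM, the Gdf10/F3 fibroblasts 216.3 to 441.9, the Dpp4/Pi16 fibroblasts 211.3 to 353.5 and the macrophages 156.6 to 323. The range of the Fabp4/Cxcl14 fibroblasts overlapped only that of the Tnc/Mfap4 fibroblasts, and the ranges of the other 4 populations all overlapped one another. For Hmgcs1, Idi1, Fdps, Fdft1, Sqle, Cyp51, Msmo1 and Sc5d, the Fabp4/Cxcl14 fibroblasts were the highest of the 4 subsets in 12 of 12 libraries, and the same held for Srebf2, Insig1 and Stard4.

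**Figure D1:**
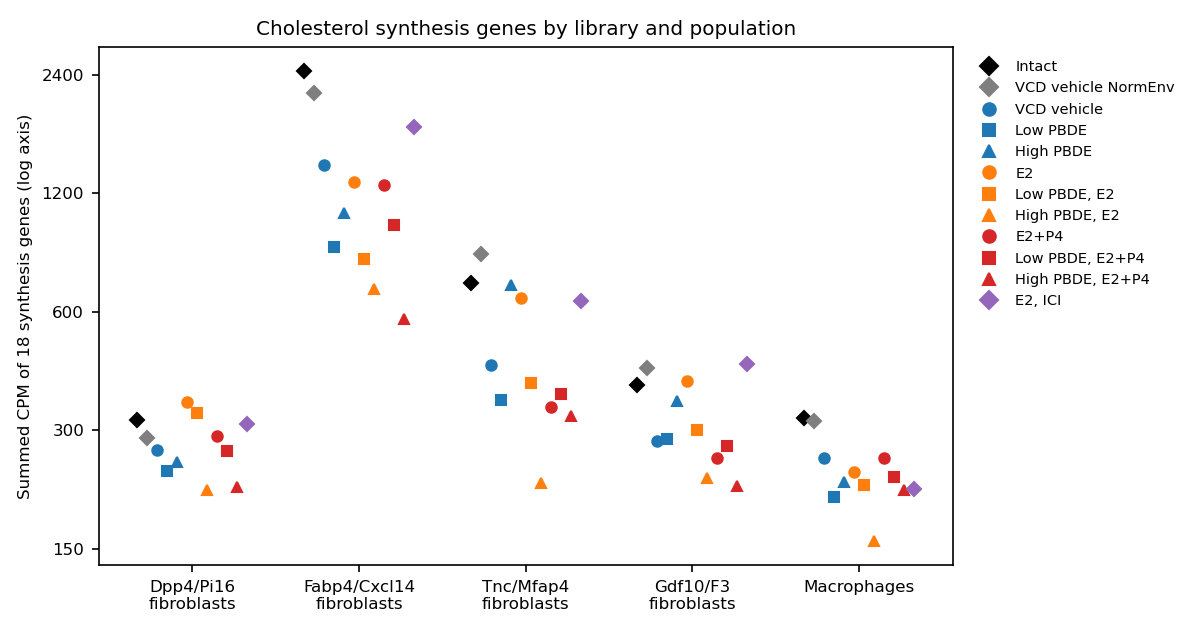
Summed CPM of the 18 synthesis genes (log axis) in each population, with 1 marker per library (colour for the hormone group, circles, squares and triangles for no, low and high PBDE, and diamonds for the 3 libraries outside the layout). The Fabp4/Cxcl14 fibroblasts run from 576.6 CPM in VCD_High_PBDE_E2_P4 to 2462 CPM in Intact, and the Dpp4/Pi16 fibroblasts stay between 211.3 and 353.5 CPM.

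In the test across all genes, each subset was set against the mean of the other 3 within the same library (edgeR quasi-likelihood test on 48 sums with library as a block, Benjamini-Hochberg adjusted p under 0.05). Of the 18 synthesis genes, 16 were higher and 0 lower in the Fabp4/Cxcl14 fibroblasts, where 29.9% of all genes tested were called higher and 29.7% lower. The median log2 difference of the 18 was 0.95, beside 0.00 over all genes. Idi1, which makes the isoprenoid dimethylallyl diphosphate, differed by 2.87 (SE 0.13) on the log2 scale. Hmgcs1, which condenses acetyl units to HMG-CoA, differed by 2.64 (SE 0.10). Sqle, the squalene epoxidase, differed by 2.46, and Msmo1, the sterol methyl oxidase, by 2.44. Cyp51, the lanosterol demethylase, Fdps and Fdft1 differed by 2.02, 1.80 and 1.57. Acat2, at 0.02, and Ebp, at 0.08, were the 2 synthesis genes not called. The early stress genes moved with this contrast, since of 14 such genes (Fos, Jun, Hspa1a and others) 11 were higher and 2 lower in the Fabp4/Cxcl14 fibroblasts (median 0.59), with sums of 16400 to 37050 CPM against 11430 to 16860 CPM in the Dpp4/Pi16 fibroblasts. They summed to 16300 to 25390 CPM in the Gdf10/F3 fibroblasts, where synthesis was not high, and to 10690 to 31110 CPM in the Tnc/Mfap4 fibroblasts. Their part in the result was not tested. The contrast was uneven along the pathway, from Acat2 and Ebp with hardly a difference to Idi1 and Hmgcs1 with the widest.

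Of the control genes, Insig1 and Srebf2 followed the same order. Insig1 was higher in the Fabp4/Cxcl14 fibroblasts by 2.26 (SE 0.09), at 179.9 to 629 CPM over the 12 libraries, against 30.09 to 93.71 in the Dpp4/Pi16 fibroblasts. Srebf2 was higher by 1.09 (SE 0.06). Scap and Insig2 were called higher there by 0.25 and 0.20, but Scap was highest in the Tnc/Mfap4 fibroblasts in 8 of 12 libraries and Insig2 in the Dpp4/Pi16 fibroblasts in 9 of 12. Srebf1, which serves fatty acid synthesis more than cholesterol, did not pass the test in this subset (-0.07) and was highest in the Dpp4/Pi16 fibroblasts in 12 of 12 libraries, by 0.44 (SE 0.05).

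The uptake genes were divided, and the exporters were lower where synthesis was high. Stard4, which carries cholesterol between membranes, was higher in the Fabp4/Cxcl14 fibroblasts by 2.02 (SE 0.10). Abcg1 and Abca1, the exporters to lipoprotein particles, were lower there by log2 values of -2.28 and -0.76, and Mylip was lower by -1.19. Of the 5 uptake genes, 2 were called higher (Stard4 and Npc1, the latter by 0.10) and 2 lower (Mylip and Npc2, the latter by -0.46). Of the 3 genes of export and storage, 0 were called higher and 2 lower. The small difference of Npc1 lost its call without any 1 of VCD_Low_PBDE, VCD_Low_E2, VCD_High_PBDE or VCD_High_PBDE_E2 (0.07 to 0.12 over the 12 omissions, adjusted p up to 0.115, edgeR), and was 0.02 with a gate on 1 pair of markers per subset.

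**Figure D2:**
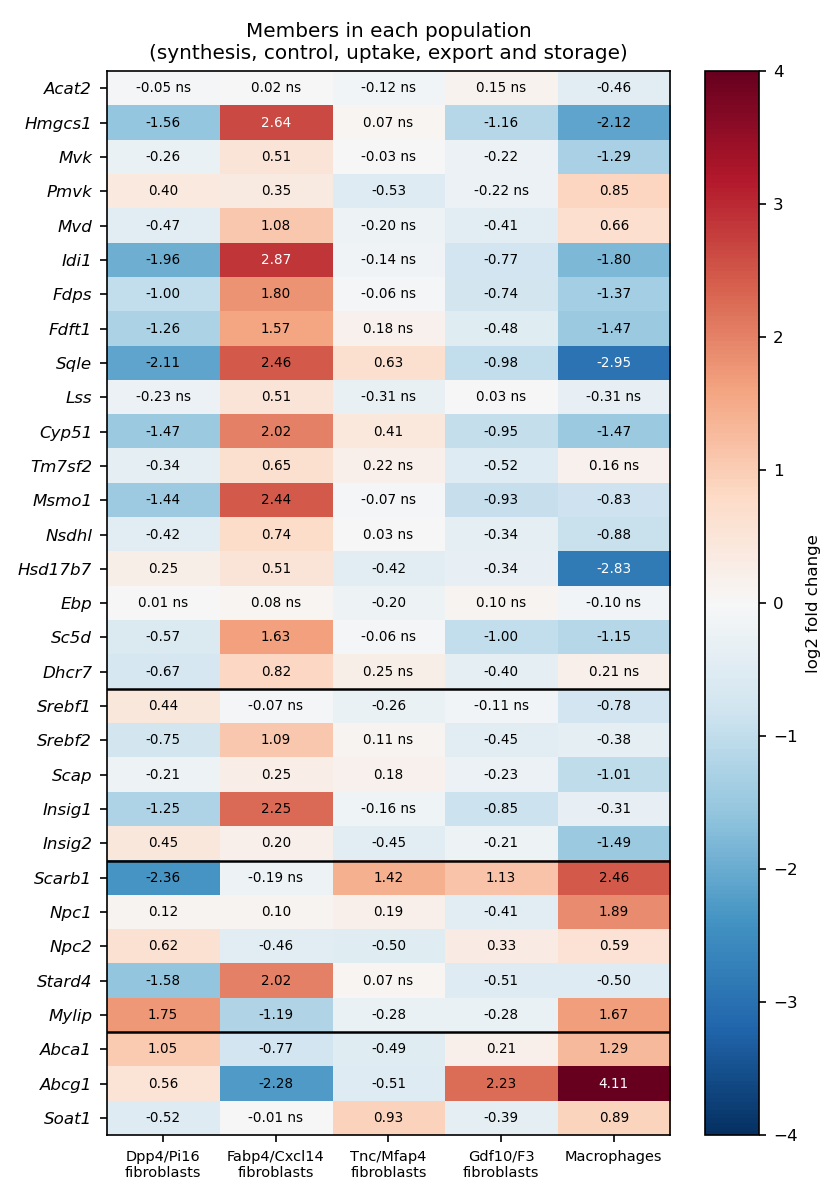
Log2 difference of each of the 31 genes in each population (fibroblast subsets against the mean of the other 3, macrophages against the mean of the 4 subsets), with colour for the size and ns where the adjusted p was 0.05 or above. The column of the Fabp4/Cxcl14 fibroblasts is positive for all 18 synthesis genes and negative for Abca1 and Abcg1, and that of the macrophages has its widest positive value at Abcg1 (4.11).

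The Dpp4/Pi16 fibroblasts were close to the reverse. Of the 18 synthesis genes, 2 were called higher (Pmvk by 0.40 and Hsd17b7 by 0.25) and 13 lower, led by Sqle (-2.11), Idi1 (-1.96), Hmgcs1 (-1.56) and Cyp51 (-1.47), where 35.5% of all genes were called higher and 35.6% lower. Of the 14 stress genes 1 was called higher and 11 lower here (median -0.64). Abca1 (1.05, SE 0.06) and Mylip (1.75, SE 0.06) were highest in this subset in 12 of 12 libraries. Npc2, the small lysosomal protein that hands cholesterol to the membrane protein NPC1, was higher by 0.62 (SE 0.07). Scarb1, the receptor for high-density lipoprotein, was lowest here in 12 of 12 libraries, by -2.36 (SE 0.16), at 0.66 to 1.45 CPM. Tm7sf2 (-0.34, adjusted p = 0.0465, edgeR) lost its call when any 1 of 9 libraries was left out, with values of -0.41 to -0.30, adjusted p up to 0.107. The directions of Mvk (-0.26) and Scap (-0.21) came to 0.01 and 0.05 when counts were scaled per cell, which moved the median of all genes in this subset from -0.01 to 0.26.

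The Gdf10/F3 fibroblasts had 0 synthesis genes called higher and 14 lower, where 25% of all genes were called higher and 26.2% lower. Here too the mean of the other 3 included the Fabp4/Cxcl14 fibroblasts. The synthesis sums of the Gdf10/F3 fibroblasts (216.3 to 441.9 CPM) overlapped those of the Dpp4/Pi16 fibroblasts (211.3 to 353.5). Hmgcs1 was lower by -1.16, Sqle by -0.98 and Cyp51 by -0.95. These values rested on the gate. With a gate on only 1 pair of markers per subset, 3 of the 14 synthesis genes kept their call (Mvk, Mvd and Sc5d) and 5 lost it without a turn (Cyp51 at -0.07, Nsdhl at -0.06, Hsd17b7 at -0.07, Tm7sf2 at -0.17 and Fdps at -0.25). Under the same gate Hmgcs1, Idi1, Fdft1, Sqle, Msmo1, Dhcr7, Srebf2 and Stard4 turned to values of 0.01 to 0.34, of which Idi1 was the 0.34. Abcg1 was the member that marked these fibroblasts, highest in them in 12 of 12 libraries, by 2.22 (SE 0.12), at 5.83 to 12.9 CPM against 0.29 to 1.13 in the Fabp4/Cxcl14 fibroblasts. Scarb1 was higher by 1.13 (SE 0.15), Npc1 was lowest here in 12 of 12 libraries (-0.41, SE 0.04), and Npc2 was higher by 0.33 and Abca1 by 0.21, which both turned below 0 with the gate on 1 pair of markers. Scaled per cell they were at -0.003105 and -0.15, where the median of all genes came to -0.37. Mvd lost its call without VCD_E2 or VCD_E2_P4 (-0.52 to -0.35, adjusted p up to 0.0694, edgeR), and Tm7sf2 without any 1 of Intact, VCD_E2_P4, VCD_Low_PBDE or VCD_Low_E2 (-0.66 to -0.44, adjusted p up to 0.0693).

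In the Tnc/Mfap4 fibroblasts, 2 synthesis genes were called higher (Sqle by 0.63 and Cyp51 by 0.41) and 3 lower (Pmvk, Hsd17b7 and Ebp), where 30.1% of all genes were called higher and 29.7% lower. With the gate on 1 pair of markers neither of the 2 higher calls was kept, with Sqle at 0.09 (adjusted p = 0.586, edgeR) and Cyp51 at -0.01, and Ebp also lost its call (-0.10). This subset was told apart by Soat1, which esterifies cholesterol for storage in droplets. Soat1 was highest in it in 12 of 12 libraries, by 0.93 (SE 0.08), at 42.02 to 94.24 CPM. Scarb1 was higher by 1.42 (SE 0.15), and Abcg1 (-0.51) and Abca1 (-0.49) were lower, with Abcg1 at 0.18 under the gate on 1 pair. Scap, higher by 0.18, lost its call without VCD_High_PBDE_E2 (0.14, adjusted p = 0.0649, edgeR) and with the gate on 1 pair (0.05).

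Macrophages were set against the mean of the 4 fibroblast subsets (60 sums, library as a block). Most synthesis genes were lower in them than this mean, which includes the high Fabp4/Cxcl14 fibroblasts, and the genes of export and storage were higher. Of the 18 synthesis genes, 2 were called higher and 12 lower, where 34.3% of all genes were called higher and 44.8% lower. The median log2 difference of the 18 was -1.01, beside -0.17 over all genes. Sqle (-2.95, SE 0.35), Hsd17b7 (-2.83, SE 0.28), Hmgcs1 (-2.12) and Idi1 (-1.80) were lower, and Pmvk (0.85) and Mvd (0.66) were higher. The macrophages of a library held only 0 to 13 UMIs of Sqle and 0 to 10 of Hsd17b7. Mvd lost its call without the cells of highest UMIs (0.41) and scaled per cell (0.20, beside a median of -0.62 over all genes). Hmgcs1, Mvk, Hsd17b7, Scap and Insig2 were below every fibroblast subset in 12 of 12 libraries. Of the other synthesis genes called lower, this held in 10 libraries for Sqle, 9 for Nsdhl and 8 for Fdft1 and Sc5d. It held in 7 for Fdps and Cyp51, 6 for Idi1 and Acat2, and 2 for Msmo1. All 5 control genes were lower, with Insig2 at -1.49, Scap at -1.01 and Srebf1 at -0.78.

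Abcg1 was the widest difference of macrophages among the 31 genes, at 4.11 (SE 0.15), with 16.41 to 83.54 CPM. Scarb1 (2.46, SE 0.18), Npc1 (1.89, SE 0.06), Mylip (1.67, SE 0.09), Abca1 (1.29, SE 0.07), Soat1 (0.89) and Npc2 (0.59) were also higher. In 12 of 12 libraries, Abcg1, Scarb1 and Npc1 were above every fibroblast subset. All 3 genes of export and storage were thus called higher, and 4 of the 5 uptake genes. Stard4 was lower (-0.50) and lost its call without any 1 of 6 libraries (-0.74 to -0.40, adjusted p up to 0.127, edgeR). Insig1 (-0.31) lost it without Intact or VCD_E2 (-0.43 to -0.24, adjusted p up to 0.0831), and Acat2 (-0.46) without VCD_E2 (adjusted p = 0.0527).

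Cells differ in depth, so each cell was also thinned to 5000 UMIs before its synthesis UMIs were counted. The median Fabp4/Cxcl14 fibroblast then had 2 to 8 UMIs of the 18 genes, depending on the library, and the 90th percentile was 7 to 30. Cells without a single synthesis UMI made up 3.3% to 20.3% of this subset. In the Dpp4/Pi16 fibroblasts the thinned median was 1 in every library, with 29.8% to 35.9% of cells at 0, and in macrophages it was 1, with 31.4% to 42.9% at 0. The Tnc/Mfap4 fibroblasts had medians of 1 to 3 and 11% to 44.6% at 0, and the Gdf10/F3 fibroblasts 1 to 2 and 23.6% to 42%. Unthinned, the library medians were 7 to 26 in the Fabp4/Cxcl14 fibroblasts and 1 to 7 elsewhere. Cells below 5000 UMIs were left out, namely 657 Dpp4/Pi16, 499 Fabp4/Cxcl14, 322 Tnc/Mfap4 and 606 Gdf10/F3 fibroblasts and 164 macrophages. VCD_Low_E2_P4 lost 329 of its 1224 Fabp4/Cxcl14 fibroblasts this way. Most thinned cells of every population and library thus held at least 1 synthesis UMI. The Fabp4/Cxcl14 fibroblasts had the longest upper tail, with a 90th percentile of 7 to 30 beside 2 to 9 in the Tnc/Mfap4 fibroblasts.

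**Figure D3:**
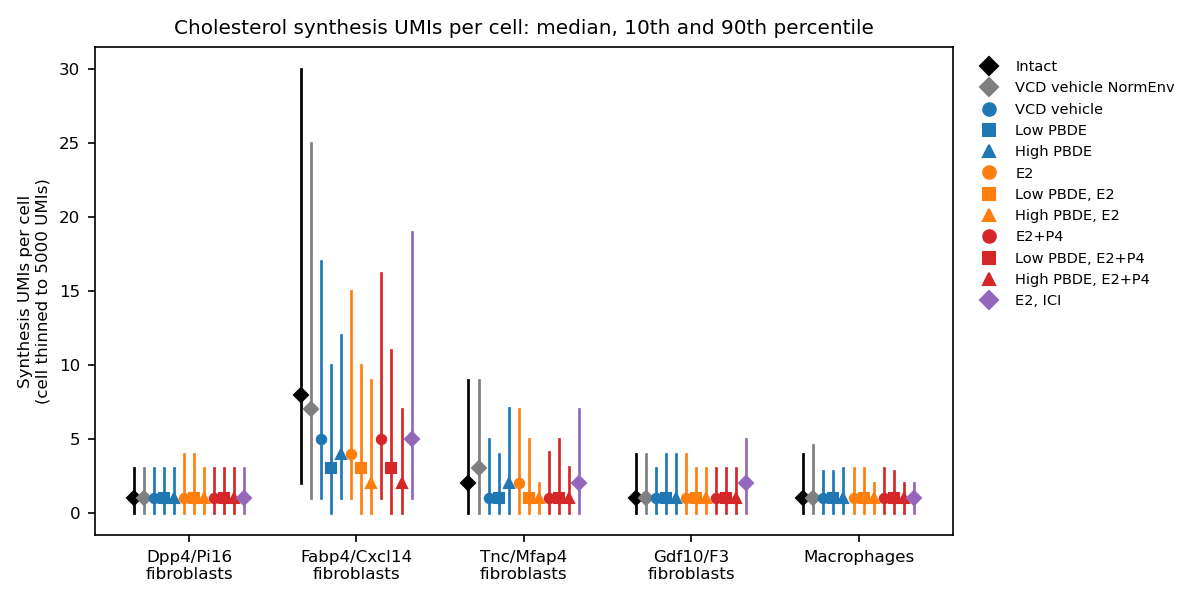
UMIs of the 18 synthesis genes per cell after thinning to 5000 UMIs, for each library and population, as the median (marker) with a line from the 10th to the 90th percentile of cells. In Fabp4/Cxcl14 fibroblasts the median runs from 2 to 8 and the upper end from 7 to 30, while the Dpp4/Pi16 fibroblasts and the macrophages have a median of 1 in every library.

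The effect of hormone was taken as the mean of E2 and E2 with P4 against no hormone, over the 9 libraries of the layout with the diet as a further term, which leaves 4 residual degrees of freedom (edgeR, each population alone). Of the 31 genes, 1 was called in the Dpp4/Pi16 fibroblasts, 3 in the Fabp4/Cxcl14 fibroblasts, 7 in the Tnc/Mfap4 fibroblasts and 0 in the Gdf10/F3 fibroblasts. Of 23 genes tested in macrophages 0 were called. The shares of all genes called were 11%, 12.9%, 31.5%, 3.02% and 0.217%, in the same order. By edgeR, the share of the 31 was above that of all genes in no population. DESeq2 called 1, 4 and 4 of the 31 in the Dpp4/Pi16, Fabp4/Cxcl14 and Tnc/Mfap4 fibroblasts, beside 9.2%, 9.68% and 21.3% of all genes. In the Gdf10/F3 fibroblasts 4 of the 31 had an unadjusted p under 0.05, as did 19.2% of all genes, and DESeq2 called 1, beside 2.18% of all genes. In macrophages these counts were 4 and 0, beside 10.1% and 0.41% of all genes.

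Soat1 rose with hormone. In the Fabp4/Cxcl14 fibroblasts it stood at 27.77, 27.97 and 30.03 CPM without hormone (in the order no, low and high PBDE), at 35.66, 41.62 and 40.41 CPM with E2, and at 65.44, 51.8 and 70.97 CPM with E2 and P4. The 3 sets of libraries did not overlap. The log2 change with hormone was 0.75 (adjusted p = 0.00261), and that from E2 to E2 with P4 was 0.65 (adjusted p = 0.035, edgeR). The first call stayed without any 1 library, but on the libraries without P4 the change was 0.42 and was not called (adjusted p = 0.116). The second was lost without any 1 of VCD_E2, VCD_E2_P4, VCD_Low_PBDE, VCD_High_PBDE_E2 or VCD_High_PBDE_E2_P4 (0.56 to 0.81 over the 9 omissions, adjusted p up to 0.225). It was also lost with the gate on 1 pair of markers (0.34, adjusted p = 0.129) and with counts scaled per cell (0.84, adjusted p = 0.14). This was the single call among the members for P4, where 1.56% of all genes were called in this subset. In the other populations 0 members were called for P4 by edgeR, and the shares of all genes called were 0%, 2.81%, 0.0609% and 0.0604% in the Dpp4/Pi16, Tnc/Mfap4 and Gdf10/F3 fibroblasts and the macrophages. In the same order 3, 1, 5 and 3 members had an unadjusted p under 0.05, beside 10.2%, 18%, 8.48% and 6.51% of all genes, and DESeq2 called 1 member in the Dpp4/Pi16 fibroblasts and 0 in the rest.

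Soat1 in the Tnc/Mfap4 fibroblasts stood at 49.08, 42.25 and 42.02 CPM without hormone, at 94.24, 75.93 and 92.8 with E2, and at 90.94, 79.08 and 83.29 with E2 and P4. Every hormone library was above every library without hormone, and the change was 0.86 (adjusted p = 0.000135, edgeR), which was kept without any 1 library. The gate markers of these cells moved with hormone too. The 7 markers of the Tnc/Mfap4 fibroblasts summed to 3220 to 3522 CPM without and 2381 to 2897 with hormone, and those of the Fabp4/Cxcl14 fibroblasts to 2804 to 2900 and 3970 to 4858 in the same cells. Their part in the changes of this subset was not tested. The library with E2 and ICI was at 48.83 CPM of Soat1 and VCD_Vehicle_NormEnv at 43.01 CPM, among the libraries without hormone, and Intact was between the sets at 65.27 CPM. In the Fabp4/Cxcl14 fibroblasts VCD_E2_ICI was at 24.7 CPM. Those 3 libraries enter no main test of hormone, and of them only VCD_Vehicle_NormEnv was added in alternative fits. It counted there as a library without hormone and without PBDE.

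Npc2 went in opposite directions. In the Dpp4/Pi16 fibroblasts it stood at 783.1, 594.5 and 613.3 CPM without hormone, at 889.7, 810.8 and 990.8 with E2, and at 1131, 1119 and 1197 with E2 and P4. Outside the layout, VCD_E2_ICI was at 672, Intact at 759.3 and VCD_Vehicle_NormEnv, without hormone, at 841.5, above the hormone library VCD_Low_E2. The sets of the layout did not overlap, and the log2 change was 0.60 (adjusted p = 0.0102, edgeR). Without VCD_Low_PBDE the call was lost (adjusted p = 0.0642), and the value was 0.49 to 0.71 over the 9 omissions. On the libraries without P4 it was 0.38 (adjusted p = 0.153). In the Tnc/Mfap4 fibroblasts Npc2 was at 544.5, 554.5 and 568 CPM without hormone against 436.6 to 519.4 in the 6 hormone libraries, a change of -0.34 (adjusted p = 0.0165) that turned to 0.70 when counts were scaled per cell and that lost its call without VCD_Vehicle, VCD_E2 or VCD_Low_PBDE (adjusted p up to 0.0788). With the gate on 1 pair of markers this change was -0.06 (adjusted p = 0.778).

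The UMIs per cell of this subset differed with hormone as well, a number in which RNA content and the depth of a library cannot be told apart. The median Tnc/Mfap4 fibroblast had 8288 to 10266 UMIs without hormone and 15918 to 26554 with hormone, and with counts scaled per cell the median log2 change of all genes there was 1.03. Scaled per cell, Npc2 had 5.2 to 6.2 UMIs per cell without hormone and 7.9 to 12.6 with hormone, and Soat1 had 0.44 to 0.47 and 1.33 to 2.56. The corresponding median of all genes was 0.32 in the Fabp4/Cxcl14 fibroblasts and 0.20 in the Dpp4/Pi16 fibroblasts. Soat1 in the Tnc/Mfap4 fibroblasts thus rose on both scales. The falls of Npc2, Acat2, Pmvk and Scarb1 there were falls in CPM. Scaled per cell, their fitted changes were 0.70, 0.42, 0.20 and 0.45, of which only that of Npc2 was called.

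**Figure D4:**
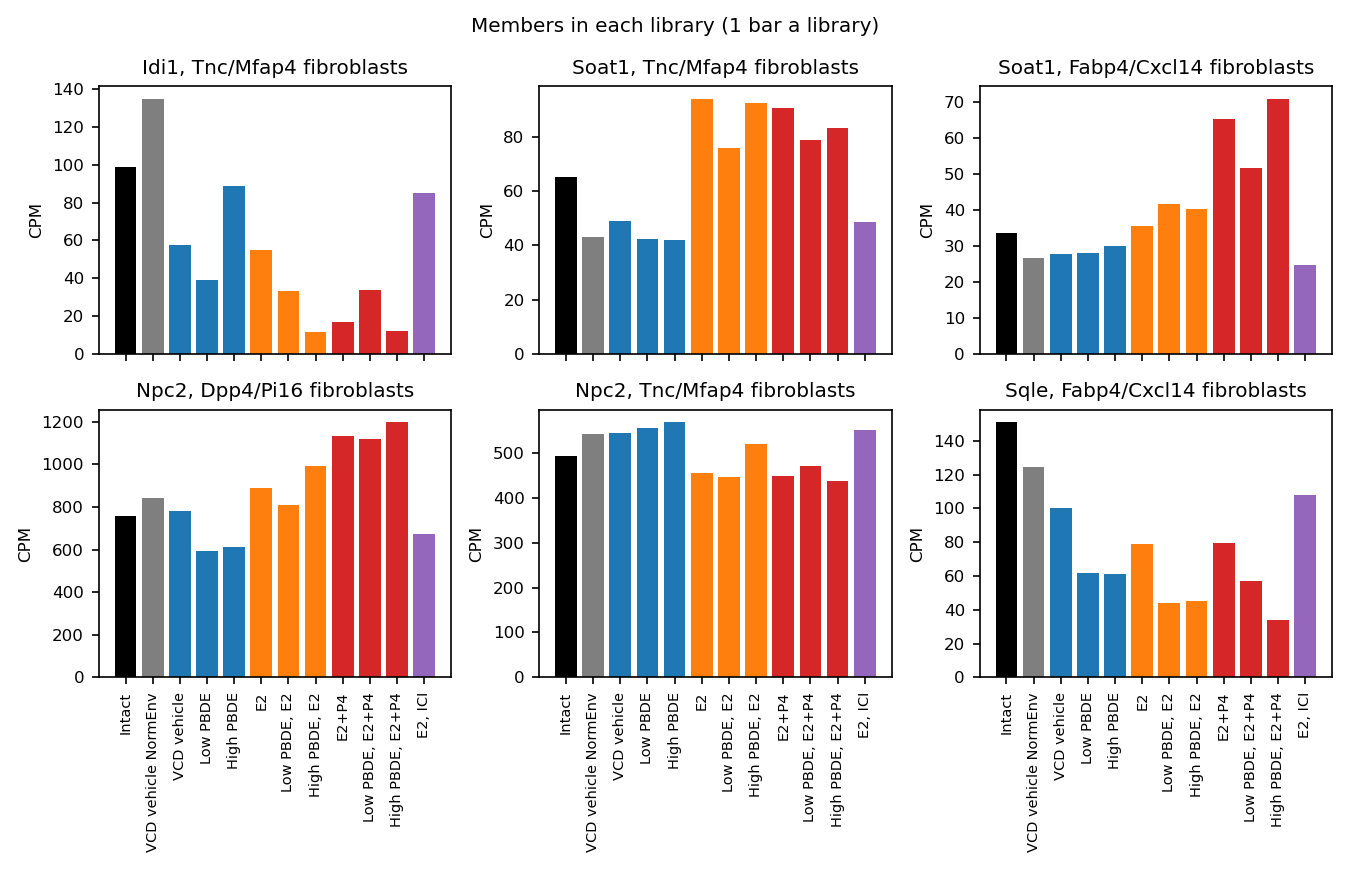
CPM of Idi1, Soat1, Npc2 and Sqle in single libraries (1 bar each, in colours by hormone), with the population of each panel in its title. Soat1 in the Tnc/Mfap4 fibroblasts lies at 42.02 to 49.08 CPM without hormone and 75.93 to 94.24 CPM with hormone.

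Among the synthesis genes, Idi1 and Sqle were called lower with hormone in the Fabp4/Cxcl14 fibroblasts. Idi1 stood at 284.8, 164 and 186.3 CPM without hormone, at 233.9, 119.2 and 108.5 with E2, and at 169.9, 147.6 and 74.21 with E2 and P4, a change of -0.64 (adjusted p = 0.0285, edgeR). Within each diet the hormone libraries were below the library without hormone, although the sets overlapped across diets. Sqle stood at 100.3, 61.77 and 60.94 CPM without hormone and changed by -0.43 (adjusted p = 0.0339), with its 6 hormone libraries at 34.16 to 79.64. The Idi1 call was lost without any 1 of VCD_Vehicle, VCD_E2_P4, VCD_Low_E2, VCD_High_PBDE or VCD_High_PBDE_E2 (-0.80 to -0.44, adjusted p up to 0.133). The Sqle call was lost without any 1 of those but VCD_High_PBDE_E2, or without VCD_E2 or VCD_Low_PBDE (-0.53 to -0.36, adjusted p up to 0.133). Scaled per cell, neither call was kept, with Idi1 at -0.34 (adjusted p = 0.365) and Sqle at -0.13 (adjusted p = 0.733). Sqle also lost its call with a gate margin of 0.5 (-0.38) and without the cells of highest UMIs (-0.40). The other 16 synthesis genes did not pass the test, and the median change of the 18 was 0.01, beside 0.00 over all genes.

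In the Tnc/Mfap4 fibroblasts Idi1 was at 57.37, 39.13 and 88.82 CPM without hormone, at 54.73, 33.33 and 11.67 with E2, and at 16.88, 33.97 and 11.86 with E2 and P4. It changed by -1.34 (adjusted p = 0.0312, edgeR), with a spread of -1.90 to -0.60 over the 9 omissions and a call that was lost in 6 of them (all but those of VCD_E2, VCD_Low_PBDE and VCD_Low_E2_P4, adjusted p up to 0.161). The call was lost as well under DESeq2 (-1.49), with the gate on 1 pair of markers (-1.18), without the cells of highest UMIs (-1.21) and scaled per cell (-0.39). VCD_Vehicle_NormEnv was at 135.1 CPM, Intact at 98.81 and VCD_E2_ICI at 84.9. Pmvk (-0.80, adjusted p = 0.0217) and Acat2 (-0.64, adjusted p = 0.0231) were also called lower, and they turned to 0.20 and 0.42 when scaled per cell. With the gate on 1 pair of markers both calls were lost (-0.50 and -0.35), and DESeq2 did not call Acat2, with the change as large (-0.63, adjusted p = 0.169). The Pmvk call was lost without any 1 of VCD_E2_P4, VCD_Low_PBDE, VCD_Low_E2 or VCD_High_PBDE (-1.04 to -0.57, adjusted p up to 0.102), and that of Acat2 without any 1 of VCD_Vehicle, VCD_E2_P4, VCD_Low_PBDE or VCD_High_PBDE (-0.72 to -0.56, adjusted p up to 0.112). The median of the 18 synthesis genes was -0.36, beside -0.02 over all genes, and 3 of the 18 were called lower and 0 higher, where 15.6% of all genes were called lower and 16% higher.

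Scap, the escort of SREBP, was the control gene called. In the Tnc/Mfap4 fibroblasts it was at 19.87, 20.25 and 14.36 CPM without hormone, at 30.44, 27.59 and 38.65 with E2, and at 37.39, 31.67 and 28.41 with E2 and P4. The sets did not overlap, and the change of 0.72 (adjusted p = 0.00815, edgeR) was kept without any 1 library. It lost its call with the gate on 1 pair of markers, where it was 0.39 (adjusted p = 0.267). In the 3 fits on fewer libraries, 2 of them without a diet term, it was 0.70, 0.70 and 1.10. The first 2 of these values were not called (adjusted p of 0.0579 and 0.0633, edgeR), and the third came from a fit with a single library without hormone. Scarb1 there was at 6.035 to 9.159 CPM without hormone and 3.034 to 8.781 with hormone, so the sets overlapped. Its change was -0.59 (adjusted p = 0.049), turned to 0.45 when scaled per cell, and lost its call in 8 of 9 omissions, all but that of VCD_Low_E2_P4 (adjusted p up to 0.245, -0.71 to -0.51). It kept the call in only 2 of 14 alternatives, both with VCD_Vehicle_NormEnv added, and on the libraries without P4 the change was -0.09 (adjusted p = 0.843).

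Genes of the early stress response moved with hormone in the same cells. Of 14 such genes (Fos, Jun, Hspa1a and others), 9 were called lower with hormone in the Fabp4/Cxcl14 fibroblasts and 13 in the Tnc/Mfap4 fibroblasts, where 5.19% and 15.6% of all genes were called lower, and 0 higher. Their sum was 27240 to 36560 CPM without hormone and 16400 to 26020 with hormone in the former, and 23770 to 31110 and 10690 to 18480 in the latter. In the Dpp4/Pi16 fibroblasts 2 of the 14 were called lower, with sums of 13580 to 15340 and 12390 to 14510. Their part in the changes of the 31 genes was not tested.

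**Figure D5:**
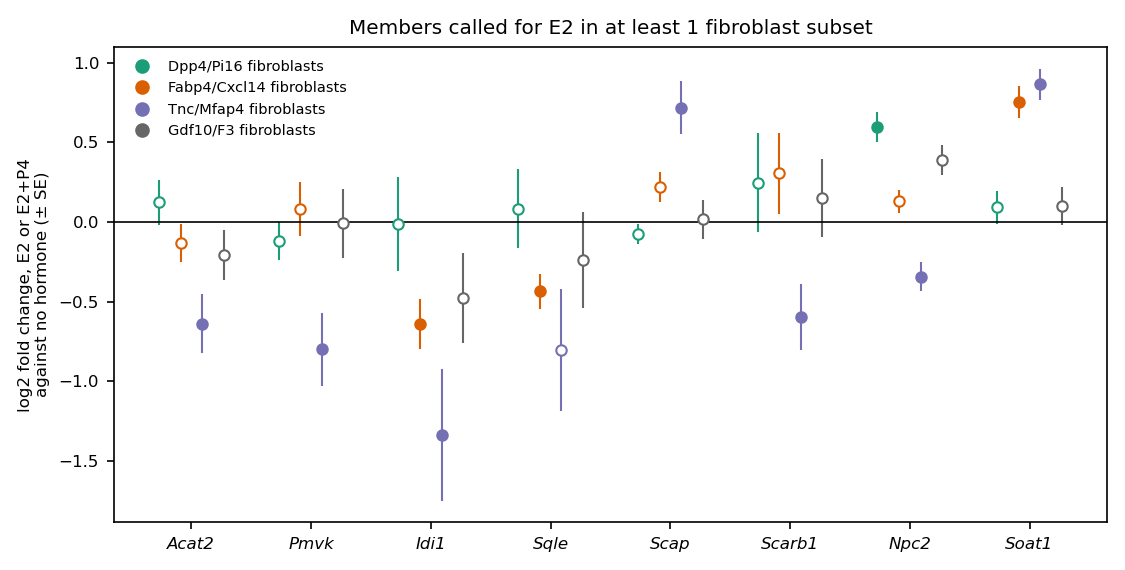
Log2 change with hormone (mean of E2 and E2 with P4 against no hormone) of the 8 genes called in at least 1 fibroblast subset, in the 4 subsets, with bars for 1 standard error, filled points where the adjusted p was under 0.05 and open points elsewhere. Soat1 is filled in the Fabp4/Cxcl14 (0.75) and Tnc/Mfap4 fibroblasts (0.86), and Npc2 is filled at 0.60 in the Dpp4/Pi16 and at -0.34 in the Tnc/Mfap4 fibroblasts.

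Whether the effect of hormone differed between the 4 subsets was tested directly, with an F test of the 3 subset-by-hormone terms over 36 sums with library as a block (edgeR). Of the 31 genes 6 were called, and of all genes 28.6%. Npc2 differed most clearly (adjusted p = 1.45e-06): against the mean of the other subsets its change was 0.55 higher in the Dpp4/Pi16 fibroblasts, 0.27 higher in the Gdf10/F3 fibroblasts and -0.72 in the Tnc/Mfap4 fibroblasts. This was kept without any 1 library and lost when counts were scaled per cell (adjusted p = 0.112). Soat1 (adjusted p = 0.000583) was -0.47 in the Dpp4/Pi16 and 0.54 in the Tnc/Mfap4 fibroblasts, and its call was kept in all 9 omissions and all 11 alternatives run. Scap (adjusted p = 0.0018) was -0.38 and 0.64 in the same subsets and was kept in all 9 omissions but not with the gate on 1 pair of markers (adjusted p = 0.234). Abca1 (adjusted p = 0.00764) was 0.42 in the Gdf10/F3 fibroblasts and lost its call without VCD_Low_PBDE (adjusted p = 0.115). Acat2 (adjusted p = 0.0166) and Pmvk (adjusted p = 0.0336) were lower in the Tnc/Mfap4 fibroblasts, by -0.59 and -0.81. Both were less steady: Acat2 lost its call without any 1 of VCD_Vehicle, VCD_E2_P4, VCD_Low_PBDE or VCD_Low_E2 (adjusted p up to 0.247), and Pmvk in 7 of 9 omissions, all but those of VCD_E2 and VCD_Low_E2_P4 (adjusted p up to 0.229), and both lost it with the gate on 1 pair of markers and with counts scaled per cell.

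Within the 9 libraries of the layout, the sums of the uptake genes did not overlap between hormone and no hormone. The 5 uptake genes together, of which Npc2 gives most of the UMIs, were at 694.5 to 887.5 CPM without and 913.8 to 1314 with hormone in the Dpp4/Pi16 fibroblasts. In the Fabp4/Cxcl14 fibroblasts they were at 526 to 544.4 and 555.5 to 642.3 CPM, in the macrophages at 1036 to 1198 and 1279 to 1531, and in the Gdf10/F3 fibroblasts at 627.8 to 746.4 and 771.2 to 1009. The Tnc/Mfap4 fibroblasts had the opposite order, 620.8 to 658.4 and 515.9 to 609.4. In none of the 5 populations did these sets overlap, nor did those of Npc2 alone. Single genes without overlap made up 13.4%, 13.3%, 26.1%, 9.05% and 4.93% of all genes tested in the Dpp4/Pi16, Fabp4/Cxcl14, Tnc/Mfap4 and Gdf10/F3 fibroblasts and the macrophages. These shares apply to Npc2 and not to a sum of 5 genes. VCD_Vehicle_NormEnv, without hormone and outside the layout, was at 960.4 CPM in the Dpp4/Pi16 and 560.3 in the Fabp4/Cxcl14 fibroblasts, among the hormone libraries. It was at 754.2 in the Gdf10/F3 fibroblasts, between the sets. In the Tnc/Mfap4 fibroblasts (634.8) and the macrophages (1084) it was among those without hormone. The order in the Tnc/Mfap4 fibroblasts is one of CPM, since per cell Npc2 was higher there with hormone. Members of the sum passed the test in the Dpp4/Pi16 (Npc2) and Tnc/Mfap4 fibroblasts (Npc2 and Scarb1). The synthesis sums overlapped between hormone and no hormone in all 5 populations, with 878 to 1414 CPM without and 576.6 to 1280 with hormone in the Fabp4/Cxcl14 fibroblasts.

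The diets were compared across the 3 hormone treatments in the same fit. For the low diet, 0 of the members were called in any population, and the shares of all genes called were 0% in the Dpp4/Pi16 fibroblasts, 0.0081% in the Fabp4/Cxcl14 fibroblasts, 0% in the Tnc/Mfap4 and 0% in the Gdf10/F3 fibroblasts and 0.0362% in macrophages (edgeR). In the Fabp4/Cxcl14 fibroblasts 7 members had an unadjusted p under 0.05, as did 2.88% of all genes. In the Dpp4/Pi16, Tnc/Mfap4 and Gdf10/F3 fibroblasts and the macrophages these counts were 1, 2, 2 and 1, beside 4.58%, 3.1%, 3.86% and 4.03% of all genes. DESeq2 called 2 members, Hmgcs1 and Sqle in the Fabp4/Cxcl14 fibroblasts, where it called 0.0567% of all genes. For the high diet, 1 member was called, in the Fabp4/Cxcl14 fibroblasts, where 0.186% of all genes were called. The shares of all genes were 0.154% in the Dpp4/Pi16, 0.076% in the Tnc/Mfap4 and 0.252% in the Gdf10/F3 fibroblasts and 0.0845% in macrophages, each with 0 members called. In the Fabp4/Cxcl14 fibroblasts 13 members had an unadjusted p under 0.05, beside 15.3% of all genes. These counts were 8, 1, 1 and 4 in the Dpp4/Pi16, Tnc/Mfap4 and Gdf10/F3 fibroblasts and the macrophages, beside 19.3%, 13.5%, 15.3% and 6.71% of all genes.

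Sqle was that member. In the Fabp4/Cxcl14 fibroblasts it was at 100.3, 78.96 and 79.64 CPM without PBDE (in the order no hormone, E2, and E2 with P4), at 61.77, 44.18 and 56.93 with the low diet and at 60.94, 45 and 34.16 with the high diet. The libraries without PBDE were above all 6 libraries with it, a lack of overlap that 1.62% of all genes tested showed in either direction, while the low and high diets overlapped. The change with the high diet was -0.97 (adjusted p = 0.0358, edgeR), and the call was lost without any 1 of 6 libraries, namely the 3 without PBDE and the 3 with the high diet (-1.06 to -0.81, adjusted p up to 0.15), without the cells of highest UMIs (-0.95, adjusted p = 0.061), or with counts scaled per cell (adjusted p = 0.0618). Hmgcs1 was at 440, 373.5 and 361.2 CPM without PBDE, at 231.5, 200.4 and 254.7 with the low and 283.9, 166.5 and 129 with the high diet, with the same lack of overlap and a change of -1.14 at an adjusted p of 0.0508. Cyp51 (-0.82) and Hsd17b7 (-0.78) had the same adjusted p of 0.0508, and Idi1 (-1.03) one of 0.0728. Of the 18 synthesis genes, 10 had an unadjusted p under 0.05 for the high diet in this subset, as did 15.3% of all genes, and the median change of the 18 was -0.49, beside 0.01 over all genes. DESeq2 called 7 members in this subset and 3 in the Dpp4/Pi16 fibroblasts, where it called 1.29% and 2.46% of all genes.

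The high diet was partly confounded with a tag in the deposited names, which had 2 forms, so that the 2 can be separated only through the low diet. All 3 libraries of the high diet carried one form and the 3 without PBDE the other. In the low diet VCD_Low_PBDE carried the form of those without PBDE, and VCD_Low_E2 and VCD_Low_E2_P4 that of the high diet. Tag and hormone thus went together within the low diet. The fit with a tag term takes the effect of hormone to be the same in every diet. What the tag marks is not stated in the sources used here. VCD_Vehicle_NormEnv and VCD_E2_ICI carried the form of the high diet, and in the Fabp4/Cxcl14 fibroblasts they stood at 124.2 and 107.7 CPM of Sqle and at 659 and 513.5 CPM of Hmgcs1, above all 9 libraries of the layout. With the tag as a further term in the fit, or with VCD_Vehicle_NormEnv added, the number of members called for the high diet was 0 and 4. The change of Sqle with the tag term was -1.11 (adjusted p = 0.431, edgeR). With both changes together the number of members called was 7, Sqle among them (-1.15, adjusted p = 0.0288, edgeR). In these fits VCD_Vehicle_NormEnv counted as a library without hormone and without PBDE, although its label is not explained. It was then the only library without PBDE that carried the form of the high diet. For hormone, the tag as a term ended the calls of Sqle in the Fabp4/Cxcl14 fibroblasts, of Pmvk, Acat2 and Scarb1 in the Tnc/Mfap4 fibroblasts and of Npc2 in both of its subsets. The changes themselves were hardly smaller or were larger, at -0.50 for Sqle, -0.82 for Pmvk, -0.72 for Acat2, -0.70 for Scarb1, and 0.59 and -0.33 for Npc2 in the Dpp4/Pi16 and Tnc/Mfap4 fibroblasts (adjusted p of 0.0563 to 0.0941, edgeR). For the difference between subsets the tag term ended the calls of Abca1, Acat2 and Pmvk. Hormone was also fitted within each form of the tag, without a diet term. Within the form that the high diet carried, Idi1 and Sqle in the Fabp4/Cxcl14 fibroblasts were at -0.72 and -0.42. VCD_High_PBDE was the only library without hormone there. Within the other form they were at -0.20 and -0.08 and not called (adjusted p of 0.781 and 0.90, edgeR). In that form VCD_Low_PBDE was among the libraries without hormone, and the hormone libraries had no PBDE. Hormone and diet are thus mixed in these values. With VCD_Vehicle_NormEnv added beside the tag term, all 11 hormone calls and all 6 calls for the difference were kept.

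The 3 libraries outside the layout stood above it for synthesis in the Fabp4/Cxcl14 fibroblasts, but not in every population. Summed over the 18 genes in the Fabp4/Cxcl14 fibroblasts, Intact stood at 2462 CPM, VCD_Vehicle_NormEnv at 2154 and VCD_E2_ICI at 1769, and the 9 libraries of the layout were at 576.6 (VCD_High_PBDE_E2_P4) to 1414 (VCD_Vehicle). Intact was the highest library for 10 of the 18 genes and VCD_Vehicle_NormEnv for 5, while VCD_High_PBDE_E2_P4 was the lowest for 8 and VCD_High_PBDE_E2 for 6. In the Tnc/Mfap4 fibroblasts VCD_Vehicle_NormEnv (844.2 CPM), Intact (712.1) and VCD_High_PBDE (701.5) were highest, and VCD_High_PBDE_E2 (220.6) was the lowest sum and the lowest library for 12 of the 18 genes. Hmgcs1 in the Fabp4/Cxcl14 fibroblasts was at 800.1 CPM in Intact. In the Dpp4/Pi16 fibroblasts VCD_E2 (353.5 CPM) and VCD_Low_E2 (332) were above all 3, and in macrophages VCD_E2_ICI (213.3) was within the layout. With 1 library each, these 3 groups have no replicate and were not tested.

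Neighbouring pathways were counted over lists that hold none of the 31 genes. Of all genes, hormone called 5.68% higher and 5.29% lower in the Dpp4/Pi16, 7.69% and 5.19% in the Fabp4/Cxcl14, 16% and 15.6% in the Tnc/Mfap4 and 2.08% and 0.94% in the Gdf10/F3 fibroblasts, which is the background for every count of these lists. Of 14 fatty acid genes of the SREBP system, 2 were called higher and 1 lower with hormone in the Fabp4/Cxcl14 fibroblasts, and 4 and 1 in the Tnc/Mfap4 fibroblasts (edgeR). Scd1, which desaturates stearate, was higher by 1.29 and 0.87 in these subsets, Scd2 by 0.67 and 1.06, and Pcyt2 lower by -0.57 and -0.50. In the Dpp4/Pi16 fibroblasts 0 were called higher and 2 lower, Scd1 (-0.47) and Me1 (-0.25). Scd1 rose in both subsets in which the synthesis genes called were lower.

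Of the oxysterol enzymes, Cyp27a1, a mitochondrial sterol hydroxylase, was called lower with hormone in all 4 fibroblast subsets, by -0.41, -0.99, -1.48 and -0.60 in the Dpp4/Pi16, Fabp4/Cxcl14, Tnc/Mfap4 and Gdf10/F3 fibroblasts. Cyp7b1, which hydroxylates oxysterols, was higher by 1.58 in the Dpp4/Pi16 and 0.80 in the Gdf10/F3 fibroblasts and lower by -0.82 in the Tnc/Mfap4 fibroblasts. Among the genes of sterol traffic, Lipa, the lysosomal lipase that frees cholesterol from its esters upstream of NPC2, was higher in the Dpp4/Pi16 (0.66) and Gdf10/F3 fibroblasts (0.48). Nceh1, which hydrolyses cholesterol esters, the reverse of the step of Soat1, was lower in the Fabp4/Cxcl14 (-0.61), Tnc/Mfap4 (-1.57) and Gdf10/F3 fibroblasts (-0.66), and Gramd1b, a carrier of cholesterol from the plasma membrane, was higher in the Fabp4/Cxcl14 (1.55) and Tnc/Mfap4 fibroblasts (2.14). The list called 2 higher and 0 lower of 12 tested in the Dpp4/Pi16, 1 and 1 of 11 in the Fabp4/Cxcl14, 2 and 3 of 11 in the Tnc/Mfap4 and 1 and 1 of 11 in the Gdf10/F3 fibroblasts.

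Of the genes of the LXR system, 1 was called higher and 0 lower of 8 tested in the Dpp4/Pi16 fibroblasts (Apoc1, 1.61), 1 and 2 of 7 in the Fabp4/Cxcl14 fibroblasts, 1 and 3 of 8 in the Tnc/Mfap4 fibroblasts and 0 in the Gdf10/F3 fibroblasts. Pltp, the phospholipid transfer protein, was lower by -0.54 in the Fabp4/Cxcl14 and by -1.42 in the Tnc/Mfap4 fibroblasts, and Apoc1 by -1.94 in the latter. Of 6 genes of other isoprenoid branches, 1 was called in the Dpp4/Pi16 fibroblasts (Coq2, -0.28) and 1 in the Tnc/Mfap4 fibroblasts (Fntb, 0.64). In macrophages 0 genes of these 5 lists were called, where 3 of 10 genes of sterol traffic had an unadjusted p under 0.05, beside 10.1% of all genes.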

How the data were processed

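Single-cell RNA sequencing was done on 12 libraries of mouse mammary gland (Chromium v3). The authors made the deposited UMI counts with Cell Ranger 3.1.0 on mm10, one count matrix per library, with no normalization. The labels name a HiSeq and the study's methods a NovaSeq as the sequencer. Cells had at least 500 genes, 1000 UMIs and at most 5% mitochondrial UMIs. Fibroblasts held no UMI of 6 negative selection genes and a UMI of Col1a1 or Pdgfra. A subset was given by the highest mean z-score over 7 markers, at least 0.25 above the next; 4240 fibroblasts stayed unassigned and 2976 lay within 0.1 of the limit. Macrophages held at least 2 C1q chains and 1 of Csf1r, Adgre1 or Fcgr1. They held no UMI of Epcam, Krt14, Pecam1, Cspg4, Pdgfra, Cd3e or Cd79a. The 42 cells in both gates counted as macrophages. No doublet caller was run; leaving out the cells of highest UMIs was an alternative.

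UMIs were summed per library and population and tested with edgeR 4.0.16 (TMM, filterByExpr, quasi-likelihood) in R 4.3.3, with Benjamini-Hochberg adjustment over all genes tested. With 1 library per group, the tests of hormone and diet take their error from the additive layout of 9 libraries. DESeq2 1.42.0 was an alternative. The scripts were tested on simulated counts. Genes were named when called, up to 10 of largest change per contrast and population, and 12 members by their role whatever their values. The members, gene lists, gates and rules were chosen with earlier results of these data known. Ovariectomized mice were not analysed here.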

Additional observations from a re-analysis of the deposited data

Results flagged for a closer look

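The change with hormone differed between the 4 fibroblast subsets for 6 of the 31 genes, by the test of the difference itself (edgeR, F test of the subset-by-hormone terms). The adjusted p was 1.45e-06 for Npc2, 0.000583 for Soat1, 0.0018 for Scap, 0.00764 for Abca1, 0.0166 for Acat2 and 0.0336 for Pmvk. Over all genes, 28.6% were called by the same test.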

How the results depend on the processing

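The differences between subsets (95 called) and between macrophages and fibroblasts (27 called) kept counts within 1.5 times of these under every alternative run, with 93 to 96 and 24 to 28 when single libraries were left out. Counts hide turnover: with the gate on 1 pair of markers, 67 of the 95 calls between subsets were kept, 16 were lost and 12 turned, and scaled per cell 84 were kept, 7 lost and 4 turned, a scaling that also moved the median of all genes to 0.26 in the Dpp4/Pi16 and -0.37 in the Gdf10/F3 fibroblasts. The tests with 9 libraries were less steady. Leaving out single libraries gave 5 to 14 calls for hormone (11 with all), 0 to 1 for P4 (1), 0 to 0 for the low diet (0), 0 to 8 for the high diet (1) and 3 to 12 for the difference between subsets (6). DESeq2 called 3 for P4, 2 for the low and 10 for the high diet. Without a filter on low counts there were 21 calls for hormone, 4 for P4, 1 for the low and 9 for the high diet. With a gate on 1 pair of markers per subset there were 7 for hormone, 0 for P4 and 5 for the high diet. The high diet had 2 with a mitochondrial limit of 10%, 3 with a gate margin of 0.5 and 0 without the cells of highest UMIs. With the form of the name tag as a term there were 6 for hormone, 2 for P4, 0 for the high diet and 3 for the difference. Adding VCD_Vehicle_NormEnv as a library without hormone and PBDE gave 21, 2, 4 and 12 in the same order. Adding it with the tag term gave 23, 3, 7 and 14. On libraries without P4 hormone had 1 call. On those of the form of the tag that the high diet did not carry it had 2, in a fit without a diet term. Both fits had fewer residual degrees of freedom.

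Counts scaled per cell, an alternative chosen after seeing the data, gave 26, 2, 11 and 15 for hormone, P4, the high diet and the difference. The 2 for P4 were Msmo1 and Hmgcs1 in the Dpp4/Pi16 fibroblasts, not Soat1. There the changes with hormone of Pmvk, Scarb1, Npc2 and Acat2 in the Tnc/Mfap4 fibroblasts turned to 0.20, 0.45, 0.70 and 0.42. The differences of Mvk and Scap in the Dpp4/Pi16 fibroblasts turned to 0.0101 and 0.0528, and those of Abca1 and Npc2 in the Gdf10/F3 fibroblasts to -0.15 and -0.003105. With the gate on 1 pair of markers, Cyp51 and Abcg1 in the Tnc/Mfap4 fibroblasts turned to -0.0051 and 0.18. In the Gdf10/F3 fibroblasts the turned values were -0.05143 for Abca1, 0.0816 for Dhcr7, 0.0824 for Msmo1, 0.0525 for Fdft1, 0.34 for Idi1, 0.0066 for Hmgcs1, -0.0777 for Npc2, 0.0596 for Sqle, 0.0343 for Srebf2 and 0.20 for Stard4. The moves under per-cell scaling were about as large as its shift of the median of all genes, and the cause of the others was not tested. No paired analysis was possible because each group held 1 library, so replicate numbers pair no samples between groups; comparisons between populations had the library as a block. Depth limits the macrophages most, with 457491 to 1602763 UMIs per sum.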
